A study of Homo sapiens with 17 samples.

Results

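The NF-κB family described here comprised 10 of the 26457 genes in the expression table. It held the 5 NF-κB subunits RELA, NFKB1, NFKB2, RELB and REL, the 3 classical IκB proteins NFKBIA, NFKBIB and NFKBIE, and the 2 nuclear IκB proteins BCL3 and NFKBIZ. Each gene was found by its symbol, and all 10 were among the 14800 genes that were tested, whose normalized reads averaged 2.5 or more over the 8 libraries. The measurements were mRNA-seq of SW480 cells, an established human colon cancer line that expresses mutant p53 (mutp53). Control cells carried a doxycycline-inducible short hairpin RNA against LacZ, a bacterial gene, and mutp53-depleted cells carried an inducible hairpin against p53. Both lines were kept under puromycin with doxycycline, and both received TNF-α at 12.5 ng/ml for 0 or 16 h, which gave 4 groups of 2 libraries. The replicate letters A and B stood only in the column names, and the study's methods describe biological replicates. The libraries held 6108488 to 13809578 reads on genes, and the A library was the deeper of each group. A normalized read is a read multiplied by the factor of its library, so 1 read was worth 0.6701 to 1.515 normalized reads. The hairpins were in separate stable lines, so the loss of mutp53 and other differences between the lines cannot be told apart. In bulk RNA, fewer cells expressing a gene and less RNA per cell also cannot be told apart.

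NF-κB transcription factors are dimers of the Rel homology proteins. RELA, RELB and REL carry transactivation domains, whereas NFKB1 and NFKB2 encode the precursors of p50 and p52. Classical IκB proteins hold dimers in the cytoplasm until TNF-α receptor signaling through the IκB kinase leads to their degradation, and several family genes are themselves NF-κB targets, which gives the pathway its feedback loops. In colon epithelium and colon cancer the pathway is known as a link between inflammation and tumor growth.

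NFKBIA, which encodes the inhibitor IκBα, had the largest response of the 10 genes to TNF-α in control cells. Its upstream sequence holds matches to both κB motifs that were searched, as those of other family genes do. It is shown at length because the run lies in no exon of the gene annotation. The run covers chr14:35404801-35404999 on the minus strand of GRCh38.p14 (RefSeq promoter table), 250 to 52 bases before the transcript start. Capitals mark the motif matches.
NFKBIA: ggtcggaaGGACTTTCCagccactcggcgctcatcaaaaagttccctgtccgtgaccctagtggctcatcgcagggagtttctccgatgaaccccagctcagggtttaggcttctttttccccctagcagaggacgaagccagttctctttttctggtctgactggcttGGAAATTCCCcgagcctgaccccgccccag

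The motifs were the κB consensus of 10 letters and the 9-letter motif GGANNTTCC, each read on both strands in windows from 250 bases before to 50 bases after the start. Of the matches to GGANNTTCC in all windows, 22% overlapped a match to the κB consensus. The table held windows for 8 of the 10 genes, RELB and NFKBIE being the others. The κB consensus was found for 7 of the 8 genes, against 7.09% of the 27305 genes with a window, and GGANNTTCC for 6 of the 8, against 5.57%. A match describes letters and not binding. Short stretches around the matches of 4 further family genes that responded to TNF-α in control cells are shown for comparison with NFKBIA, with 9 bases on each side. Unlike the NFKBIA run they overlap annotated exons, by 19 of 28 bases for NFKB1, 29 of 29 for NFKB2 and REL and 9 of 29 for NFKBIB. NFKB2 had 3 further stretches with a match and NFKBIB 1. The capitals that end the NFKBIB line are the first 2 letters of the match in that further stretch. The stretches shown lie at chr4:102501301-102501328 (NFKB1), chr10:102394462-102394490 (NFKB2), chr2:60881518-60881546 (REL) and chr19:38899932-38899960 (NFKBIB), all on the plus strand of GRCh38.p14.
NFKB1: gacgtcagtGGGAATTTCCagccaggaa
NFKB2: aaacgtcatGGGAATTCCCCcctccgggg
REL: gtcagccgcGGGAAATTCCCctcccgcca
NFKBIB: ggcgtggtgGGGAATTTCCCgcagggcGG

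The first comparison asked how 16 h of TNF-α changed the family in control cells. All 10 genes rose at an adjusted p under 0.05, where 11.1% of all genes tested rose by that rule, and 9 did with no filter, where NFKBIZ missed it (0.143). With the added requirement of a 2-fold change, 8 of the 10 rose, against 2.97% of all genes tested. The median log2 change over the 10 genes was 1.94, beside -0.05 over all genes tested. RELA and REL were the genes below 2-fold, at log2 changes of 0.49 and 0.95.

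**Figure D1:**
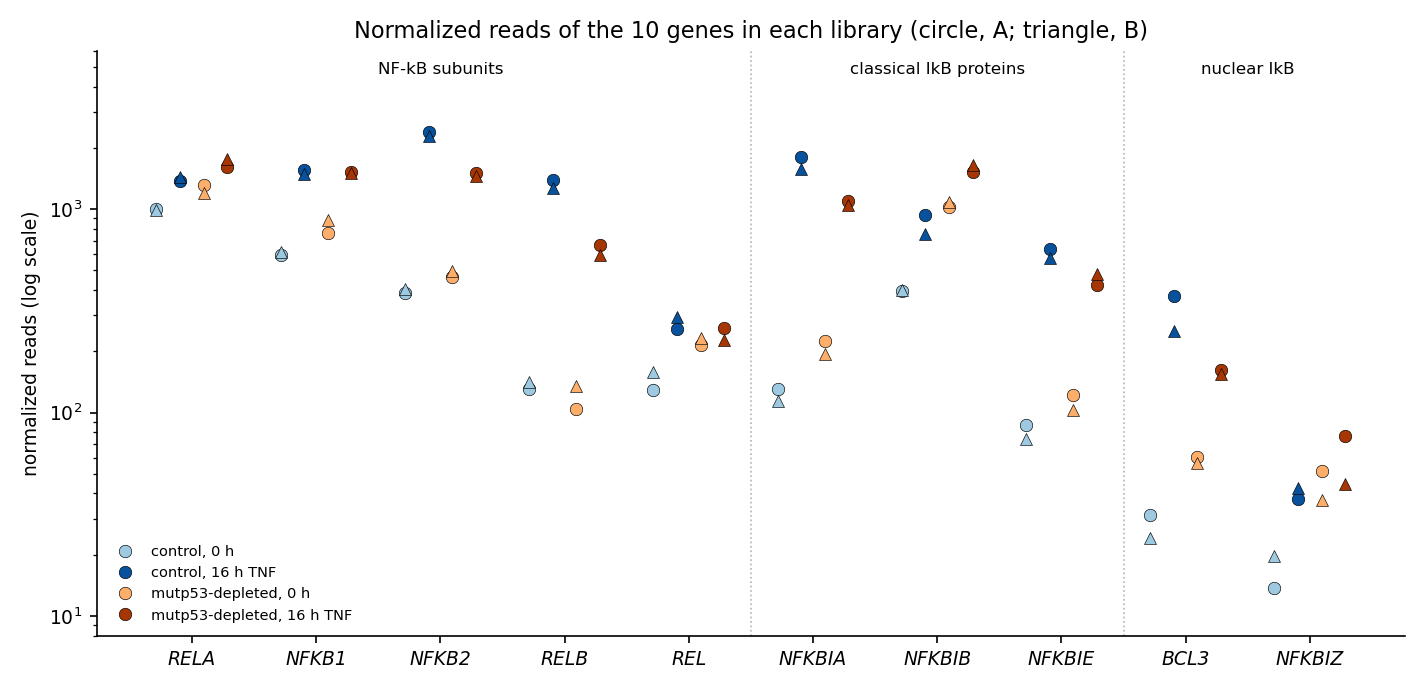
Normalized reads (log scale) of the 10 genes in each of the 8 libraries, with circles for A and triangles for B and colours for the 4 groups. In control cells the libraries treated for 16 h lie above the untreated ones for each gene, from 13.8 and 19.7 to 37.7 and 42.7 for NFKBIZ and from 131 and 114 to 1808 and 1568 for NFKBIA.

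Among the subunits, RELB and NFKB2, the partners of the alternative (non-canonical) pathway, rose most. RELB (gene 5971, chr19:45504707-45541456, plus strand, in the hg19 coordinates of the table) read 130 and 141 in untreated control cells and 1387 and 1268 after TNF-α. Depleted cells held 105 and 134 before and 662 and 597 after. The treated libraries were above the untreated ones in both cell states, and the depleted libraries after TNF-α lay below the control libraries after TNF-α without overlap. The log2 change was 3.28 ± 0.12 (SE) in control cells and 2.40 ± 0.12 in depleted cells (adjusted p = 6.30e-13 and 6.59e-11).

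NFKB2 (gene 4791, chr10:104155353-104162286, plus strand, hg19) read 388 and 403 in untreated control cells and 2382 and 2276 after TNF-α. In cells depleted of mutp53 the values were 461 and 496 before and 1497 and 1457 after. The 4 groups did not overlap, and the treated control libraries were the highest of the 8. Its log2 change was 2.55 ± 0.08 (SE) in control cells and 1.62 ± 0.08 in depleted cells (adjusted p = 3.18e-14 and 3.16e-11).

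NFKB1 (gene 4790, chr4:103422486-103538459, plus strand, hg19) read 593 and 612 in untreated control cells and 1550 and 1490 after TNF-α. In mutp53-depleted cells it read 760 and 887 before and 1516 and 1501 after. The cell states were thus apart before treatment and overlapped after it. The log2 change was 1.33 ± 0.08 (SE) in control cells and 0.88 ± 0.08 in depleted cells (adjusted p = 4.85e-10 and 1.81e-07).

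RELA, the p65 subunit that mediates most of the acute response, changed least of the 5 subunits in control cells. In depleted cells only REL changed less. It read 999 and 988 in untreated control cells and 1368 and 1433 after TNF-α, and 1313 and 1203 before and 1603 and 1764 after in mutp53-depleted cells. The treated libraries were the higher ones in each cell state, with log2 changes of 0.49 ± 0.08 (SE) and 0.42 ± 0.08 (adjusted p = 6.33e-05 and 3.64e-04).

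REL, known mainly from lymphoid cells, read 129 and 158 in untreated control cells and 258 and 294 after TNF-α. Depleted cells held 216 and 232 before and 259 and 227 after, so the libraries of the 2 time points overlapped there. The log2 change was 0.95 ± 0.13 (SE) in control cells (adjusted p = 2.60e-05). In depleted cells it was 0.12, with a 95% interval from -0.16 to 0.40 and an adjusted p of 0.572. The change in control cells reached 2-fold in 4 of 17 alternative fits, at 1.01 in both edgeR and DESeq2 and at most 1.09 without a library, and was 0.80 at the lowest.

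Of the classical inhibitors, NFKBIA (gene 4792, chr14:35870716-35873960, minus strand, hg19) read 131 and 114 in untreated control cells and 1808 and 1568 after TNF-α. In mutp53-depleted cells it read 226 and 195 before and 1097 and 1053 after. The 4 groups were fully separated, and the depleted cells were higher before and lower after treatment. Its log2 change was 3.78 ± 0.10 (SE) in control cells, a 13.7-fold rise and rank 51 of 14800, and 2.35 ± 0.10 in depleted cells, a 5.10-fold rise (adjusted p = 2.64e-14 and 1.88e-11).

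NFKBIE, which encodes IκBε, read 87.1 and 74.2 in untreated control cells and 635 and 573 after TNF-α. The values in depleted cells were 121 and 103 before and 425 and 479 after, again higher before and lower after without overlap. It rose 7.43-fold in control cells, a log2 change of 2.89 ± 0.13 (SE), and 4.01-fold in depleted cells (adjusted p = 1.12e-11 and 2.35e-09).

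NFKBIB, which encodes IκBβ, followed another pattern. It read 394 and 401 in untreated control cells and 936 and 754 after TNF-α, and in mutp53-depleted cells 1023 and 1079 before and 1520 and 1644 after. Every depleted library was above every control library. The log2 change was 1.08 ± 0.09 (SE) in control cells and 0.59 ± 0.09 in depleted cells (adjusted p = 5.34e-08 and 9.67e-05), and without the A library of treated control cells the former was 0.92, below 2-fold.

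The nuclear IκB proteins bind p50 or p52 dimers on DNA. BCL3 (gene 602, chr19:45251978-45263301, plus strand, hg19) read 31.2 and 24.2 in untreated control cells and 372 and 252 after TNF-α. In mutp53-depleted cells it read 60.3 and 56.2 before and 161 and 154 after. The untreated depleted libraries held about the doubled control value, and the treated ones lay below both treated control libraries. The log2 change was 3.43 ± 0.20 (SE) in control cells and 1.42 ± 0.20 in depleted cells (adjusted p = 3.33e-10 and 3.28e-05).

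NFKBIZ, an inducible co-regulator of secondary response genes, was the least abundant of the 10, with 13 to 39 reads in the control libraries. It read 13.8 and 19.7 in untreated control cells and 37.7 and 42.7 after TNF-α, and 51.6 and 37.0 before and 76.3 and 44.4 after in mutp53-depleted cells. The depleted libraries of the 2 time points overlapped. The log2 change was 1.23 ± 0.31 (SE) in control cells (adjusted p = 0.00557), and without the A library of untreated control cells it was 0.99 (adjusted p = 0.0619). In depleted cells it was 0.41, with a 95% interval from -0.24 to 1.05 and an adjusted p of 0.365. It lay between 0.02 and 0.79 there with a single library left out.

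In mutp53-depleted cells, 8 of the 10 genes rose with TNF-α at an adjusted p under 0.05, where 9.8% of all genes tested rose, and 5 of the 10 rose at least 2-fold, against 1.86% of all genes. The 5 were NFKB2, RELB, NFKBIA, NFKBIE and BCL3. With no filter NFKBIB missed the adjusted p (0.056), which left 7. The median log2 change was 1.15, beside -0.06 over all genes tested. Within letter A the change was smaller in depleted cells for all 10 genes, and within letter B for 9, RELA being the other at a difference of 0.02. The log2 change of NFKBIA was 3.78 in A and 3.77 in B of control cells, and 2.27 in A and 2.43 in B of depleted cells. That of BCL3 was 3.53 and 3.32 in control cells and 1.40 and 1.44 in depleted cells.

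**Figure D2:**
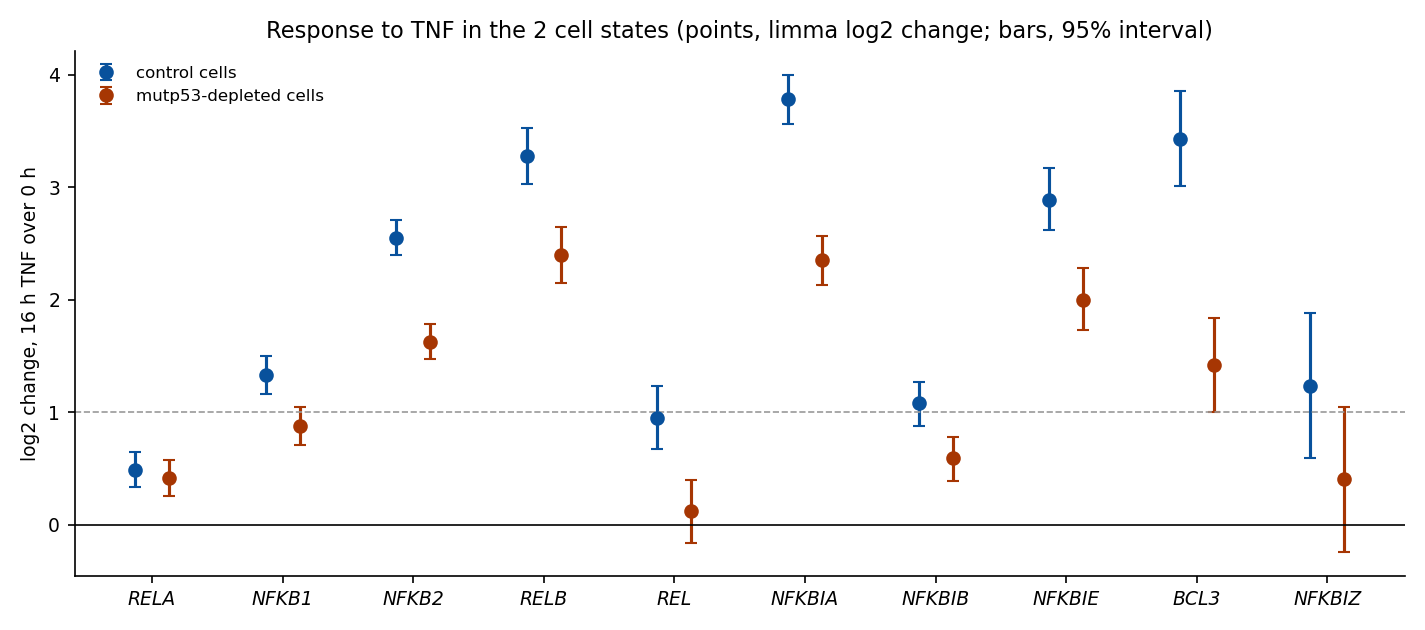
Log2 change from 0 to 16 h of TNF-α for each gene in control cells (blue) and mutp53-depleted cells (brown), with 95% intervals as bars, and a dashed line at 1 (2-fold). The points of depleted cells lie lower for all 10 genes, from 0.42 against 0.49 for RELA to 1.42 against 3.43 for BCL3.

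The difference between the responses was tested itself, as an interaction of TNF-α with the cell state. The response was smaller in depleted cells for 7 of the 10 genes at an adjusted p under 0.05, where 2.21% of all genes tested had a smaller response, and none of the 10 had a larger one, against 0.655% of all genes. These shares, here and for the lists below, include genes that did not respond to TNF-α, whereas all 10 family genes rose in control cells. The share among responding genes was not computed. The median interaction over the 10 genes was -0.86, beside -0.03 over all genes tested. BCL3 had the largest difference, at -2.01 ± 0.28 (SE) on the log2 scale (adjusted p = 4.01e-04). NFKBIA followed at -1.43 ± 0.15 (adjusted p = 2.61e-05), then NFKB2 at -0.93 ± 0.11 (adjusted p = 6.68e-05). RELB and NFKBIE both stood at -0.89 (adjusted p = 0.00518 and 0.0107), and REL at -0.83 (adjusted p = 0.0191). NFKB1 had the smallest difference that passed, at -0.46 ± 0.11 (adjusted p = 0.0344), and it missed the threshold in 12 of 17 alternative fits, as REL did in 7 and NFKBIE in 5. NFKBIB missed it at -0.49 (adjusted p = 0.0519) and passed in 5 of the 17 alternatives, NFKBIZ stood at -0.83 with a 95% interval from -1.74 to 0.09, and RELA at -0.07 with an interval from -0.30 to 0.15. With no filter on low values, the interaction of NFKB2 alone of the 10 passed, at an adjusted p of 0.0497.

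The second question was where the smaller responses lay, at the start or at the end of the treatment. The depleted and control cells were therefore compared at each time. At 0 h, 9 of the 10 genes were higher in depleted cells at an adjusted p under 0.05, where 27.3% of all genes tested were higher, and none was lower, against 25.2%. At least 2-fold, 3 of the 10 were higher, against 5.89% of all genes, and none was lower, against 9.55%. These were NFKBIB at a log2 difference of 1.40 ± 0.09 (SE), NFKBIZ at 1.35 ± 0.31 and BCL3 at 1.05 ± 0.20 (adjusted p = 7.20e-10, 0.00114 and 2.38e-04). BCL3 missed 2-fold in 3 of 18 alternative fits, at the lowest 0.88 without the B library of untreated control cells, and NFKBIZ missed the adjusted p with no filter (0.0621). The remaining 6 that passed the adjusted p ran from 0.27 for NFKB2 to 0.78 for NFKBIA, and RELB stood at -0.19 (adjusted p = 0.192).

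At 16 h, 5 of the 10 genes were lower in depleted cells at an adjusted p under 0.05, where 26.5% of all genes tested were lower, and 2 were higher, against 24.9%. At least 2-fold, RELB was lower, against 10.2% of all genes, and none was higher, against 5.03%. RELB had a log2 difference of -1.07 ± 0.12 (SE), BCL3 of -0.95 ± 0.20, NFKB2 of -0.66 ± 0.08, NFKBIA of -0.65 ± 0.10 and NFKBIE of -0.42 ± 0.13 (adjusted p = 5.18e-07, 6.19e-04, 8.87e-07, 4.42e-05 and 0.0122). NFKBIB and RELA were the higher ones, at 0.91 ± 0.09 and 0.26 ± 0.08 (adjusted p = 1.74e-07 and 0.00673). NFKB1 and REL stood at -0.01 and -0.18, with 95% intervals from -0.18 to 0.16 and from -0.46 to 0.10. NFKBIZ stood at 0.53 (adjusted p = 0.162), and between 0.14 and 0.91 with a single library left out. The adjusted p of NFKBIZ was under 0.05 in an alternative fit.

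The genes with a smaller response thus fell into 3 patterns in these values, split by the threshold. The interaction equals the difference at 16 h minus that at 0 h, so the patterns are no further test of it. NFKBIA, NFKBIE, BCL3 and NFKB2 were higher at 0 h and lower at 16 h in depleted cells. NFKB1 and REL were higher at 0 h, by 0.45 and 0.64, with no difference past the threshold at 16 h. RELB differed at 16 h and not past the threshold at 0 h. Among 18 alternative fits, NFKBIE lost its call in 4 at 0 h and 3 at 16 h, NFKB2 in 1 at 0 h and RELA in 2 at 16 h, whereas RELB passed at 0 h in 2, at -0.37 and 0.38.

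**Figure D3:**
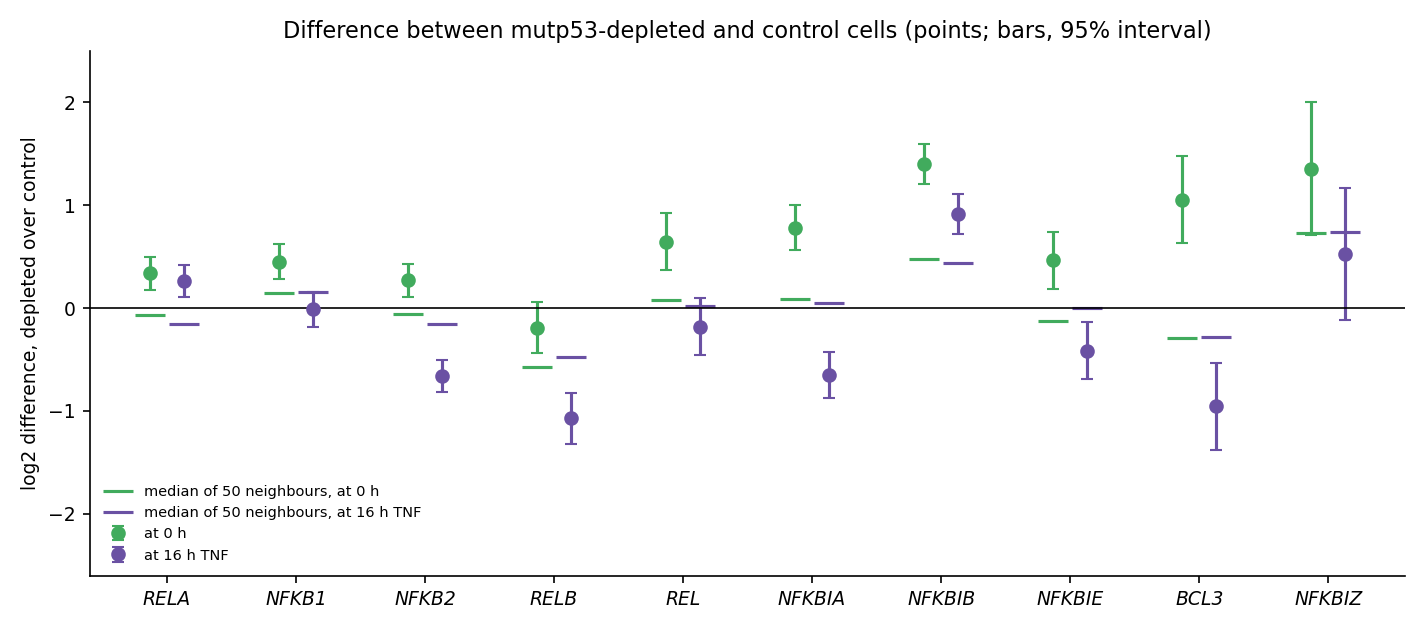
Log2 difference between mutp53-depleted and control cells for each gene at 0 h (green) and 16 h (purple), with 95% intervals as bars, and short horizontal lines for the median difference of the 50 nearest tested genes on the chromosome. NFKBIA lies at 0.78 and -0.65 with neighbours at 0.09 and 0.05, whereas the neighbours of RELB lie at -0.57 and -0.48.

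To show differences between the lines that a chromosome region shared, each gene was set beside its 50 nearest tested genes. The neighbours' median was 0.48 at 0 h and 0.44 at 16 h for NFKBIB, 0.73 and 0.74 for NFKBIZ, -0.57 and -0.48 for RELB, and -0.29 and -0.28 for BCL3. For the other 6 genes it lay between -0.15 and 0.16. With the neighbours' median removed, RELB turned from -0.19 to 0.38 at 0 h (adjusted p = 0.0112) and went from -1.07 to -0.59 at 16 h (adjusted p = 3.90e-04), below 2-fold. NFKBIB went to 0.92 at 0 h and NFKBIZ to 0.63 (adjusted p = 5.26e-07 and 0.133), so the 2-fold calls of both were lost and that of BCL3 stood. At 16 h NFKBIB went from 0.91 to 0.47 and RELA from 0.26 to 0.42. Between the times the neighbours' median differed most for NFKBIE, at -0.13 and 0.00, and the interaction was not fitted with it removed. Markers also differed between the lines. Of the 5 epithelial genes tested, 4 were lower and 1, KRT19, higher in depleted cells at both times at an adjusted p under 0.05. By that rule 27.3% of all genes tested were higher and 25.2% lower at 0 h, and 24.9% and 26.5% at 16 h. EPCAM was lower by at least 2-fold, at -1.29 and -1.06 (adjusted p = 2.43e-10 and 2.82e-09). Of the 2 intestinal genes tested, VIL1 was lower, at -5.49 and -5.60 (adjusted p = 6.17e-08 and 4.46e-08), whereas CDX2 stood at 0.12 and 0.21 (adjusted p = 0.215 and 0.0359). Of the 3 immune, stromal and endothelial genes tested, COL1A1 and CD68 were higher, at 1.51 and 1.09 at 0 h (adjusted p = 3.12e-05 and 0.00116) and 0.93 and 0.75 at 16 h (adjusted p = 0.00295 and 0.0172), and CD14 stood at -0.89 and -0.78 at the 2 times (adjusted p = 0.0791 and 0.127).

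Levels of different genes were compared per kilobase of exon length. In untreated control cells RELA was the highest at 389 ± 3.20 normalized reads per kilobase (SD, n = 2), followed by NFKBIB at 177 ± 2.33, NFKB1 at 149 ± 3.33, NFKB2 at 124 ± 3.26, NFKBIA at 78.3 ± 7.72 and RELB at 59.9 ± 3.43. NFKBIE, REL, BCL3 and NFKBIZ lay between 31.3 and 4.28, and REL and BCL3 overlapped. After TNF-α the order in control cells was led by NFKBIA at 1083 ± 109 and NFKB2 at 729 ± 23.4, with RELB at 587 ± 37.4 and RELA at 548 ± 17.9 overlapping. In treated depleted cells NFKBIB, NFKBIA and RELA stood first at 704 ± 39.0, 689 ± 19.9 and 659 ± 44.4, and each overlapped its neighbour in the order.

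The make-up of the subunit mRNA pool was described by shares. RELA made up 53.4% and 51.8% of the 5 subunits' reads per kilobase in untreated control cells, and 23.2% and 25.0% after TNF-α. In mutp53-depleted cells it made up 55.9% and 50.4% before and 34.9% and 38.1% after. The share of RELA was thus alike at 0 h and higher in depleted cells at 16 h.

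RELB and NFKB2 together held a mean of 24.9% of the pool before and 57.9% after TNF-α in control cells, and 21.9% and 41.1% in depleted cells. The NFKB1 share had a mean of 20.1% before and 16.5% after TNF-α in control cells, and 21.9% and 20.6% in depleted cells. REL held at most 3.18% in any library. Not divided by length, its mean share lay between 4.04% and 7.71% in the 4 groups. No test was made of these shares, which rest on 2 libraries a group.

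The mRNA of the 3 classical IκB proteins was also set against that of the 5 subunits. The ratio of the sums per kilobase was 0.400 and 0.376 in untreated control cells and 0.789 and 0.699 after TNF-α. In mutp53-depleted cells it was 0.705 and 0.691 before and 0.861 and 0.880 after. Untreated depleted cells thus lay near the treated control cells in this ratio. The source differed, since NFKBIB held a mean of 72.4% of the classical IκB sum in untreated depleted cells and NFKBIA a mean of 63.9% in treated control cells.

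**Figure D4:**
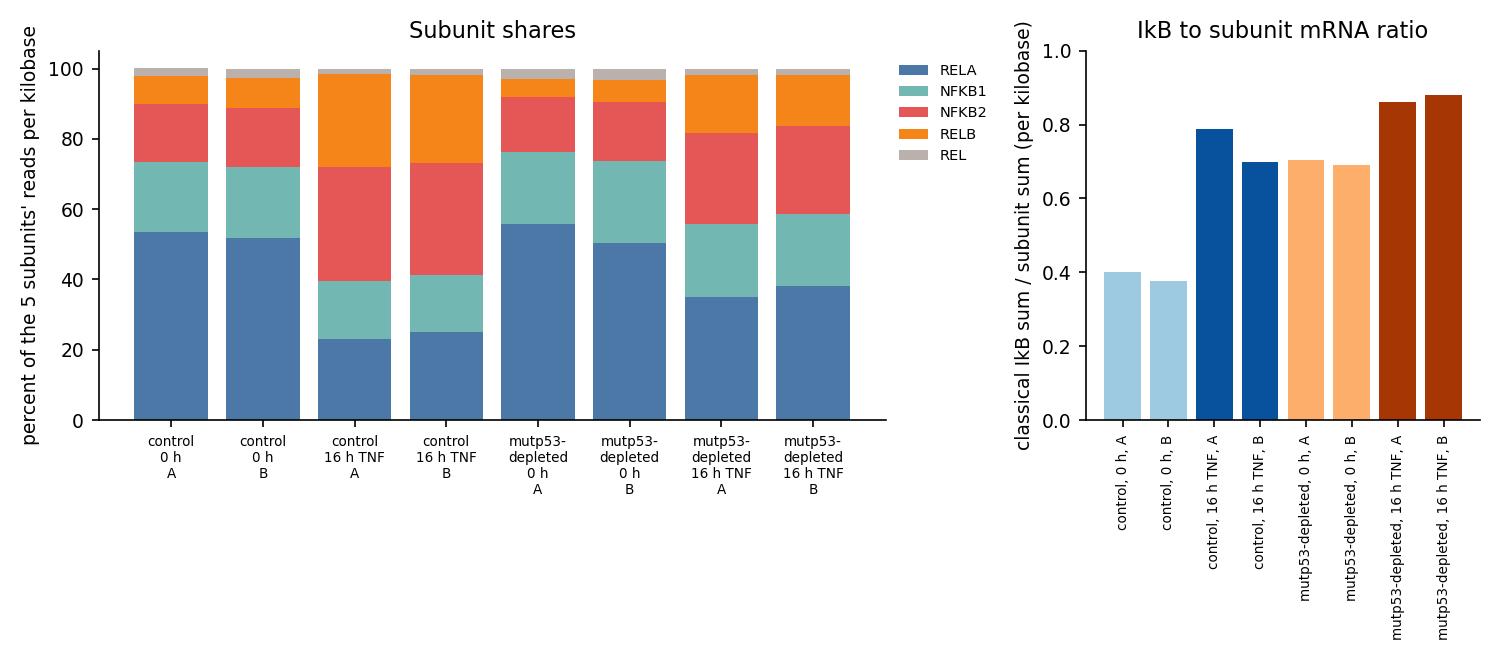
Left, the percent of the 5 subunits' reads per kilobase held by each subunit in each library. Right, the sum over the 3 classical IκB genes divided by the sum over the 5 subunits, per kilobase, in each library, with a range from 0.376 in untreated control cells to 0.880 in treated depleted cells.

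The rest of the pathway was read from lists of its components. A list of 11 genes held the IκB kinase complex, related kinases, and the kinases upstream with their TAB adaptors. Of the 11, 1 rose at least 2-fold with TNF-α in control cells. The share over all genes tested was 2.97%. By the adjusted p alone 3 rose, against 11.1% of all genes, and the list's median log2 change was 0.04. The gene past 2-fold was IKBKE, an IκB kinase-related enzyme, at 2.41 ± 0.09 (SE) in control and 1.36 ± 0.09 in depleted cells (adjusted p = 1.41e-12 and 4.53e-09). Of 8 genes of the IκB ubiquitin ligase and the linear ubiquitin chain complex none rose or fell in control cells at an adjusted p under 0.05. Of all 14800 genes tested, 1648 rose and 2243 fell by that rule. The median log2 change of the 8 genes was 0.06. Among the 4 regulators of NIK turnover, the kinase that starts NFKB2 processing, BIRC3 and BIRC2 rose at least 2-fold, against 2.97% of all genes. Their log2 changes in control cells were 6.65 ± 0.20 and 1.86 ± 0.10 (adjusted p = 3.18e-14 and 6.03e-11). Both had a smaller response in depleted cells, against 2.21% of all genes, with interactions of -2.84 and -0.66 (adjusted p = 1.46e-05 and 0.00992). That of BIRC2 missed the threshold in 5 of 17 alternative fits, and that of BIRC3 with no filter. The interaction of BIRC3 rests on 11 reads in each untreated control library, with log2 changes of 7.26 in A and 6.05 in B of control cells. After TNF-α its level was higher in depleted cells, at 2591 and 2541 normalized reads, than in control cells, at 1371 and 1169.

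Of 6 deubiquitinases and feedback proteins, with the nuclear IκB gene NFKBID counted among them, 4 passed with a rise of 2-fold or more in control cells and 3 did so in depleted cells, against 2.97% and 1.86% of all genes, with medians of 1.74 and 1.02 beside -0.05 and -0.06. TNFAIP3, the A20 feedback inhibitor, changed by 6.09 ± 0.29 (SE), TRAF1 by 3.82 ± 0.15, TNIP1 by 1.91 ± 0.07 and CYLD by 1.58 ± 0.09 (adjusted p = 2.01e-11, 1.74e-12, 6.30e-13 and 3.98e-10). The interaction was -1.95 for TNFAIP3, -0.64 for TNIP1 and -0.80 for CYLD (adjusted p = 0.0113, 6.62e-04 and 0.00172). That of TNFAIP3 missed the threshold in 5 of 17 alternative fits, and its change in letters A and B was 6.35 and 5.83 in control cells and 3.46 and 4.83 in depleted cells. Those of TNIP1 and CYLD missed it with no filter. TRAF1 stood at 0.55, with a 95% interval from 0.10 to 1.00 and an adjusted p of 0.234.

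Of 10 textbook NF-κB target genes, 8 passed with a 2-fold or larger rise in control cells, and 6 in depleted cells, against 2.97% and 1.86% of all genes. In depleted cells CXCL1 lost this call in 3 of 17 alternative fits and CXCL8 with no filter (adjusted p = 0.0503). CXCL2 passed there near the threshold, at 1.77 (adjusted p = 0.0483). VCAM1 and IL6 had no read and were not tested, and CXCL8, CXCL1, CXCL2 and CCL20 passed the filter through the treated libraries, so the filter bears on this count. The response was smaller in depleted cells for 4 of the 8 tested, against 2.21% of all genes. CCL2 was among them at -2.24 (adjusted p = 0.00412), and missed the threshold in 4 of 17 alternative fits, edgeR (0.416) and DESeq2 (0.0757) included. The others were ICAM1 at -0.80, SOD2 at -0.70 and IRF1 at -0.53 (adjusted p = 0.0397, 0.013 and 0.0385). The largest changes in control cells were those of the chemokines CCL2 at 8.67 ± 0.29 (SE), CXCL8 at 5.24 ± 0.62, CXCL1 at 4.85 ± 0.57 and CCL20 at 4.65 ± 0.73 (adjusted p = 2.45e-13, 3.25e-06, 3.10e-06 and 8.72e-05). CXCL8, CXCL1 and CCL20 had at most 2 reads in an untreated control library, so the sizes of their changes depend on the added 1. CCL2 had 5 and 2 reads there, and its change was 9.0 with 0.1 added instead and 7.72 with 5.

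NFKBIE followed NFKBIA most closely of all genes tested, with a Pearson r of 0.9976 on the log2 scale over the 8 libraries. IL32 (0.9961), IKBKE (0.9954), GUCD1 (0.9926) and TNIP1 (0.9919) came next. The libraries form 4 groups, and r takes no account of size: GUCD1 changed by 0.22 on the log2 scale with TNF-α in control cells.

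Markers were read as a check of the cell type. Of 6 epithelial genes, KRT8 reached 27733 and KRT18 27594 normalized reads, and CEACAM5 was listed at 0 in all 8 libraries. The summed level of the 6 was 69182 and 64731 in untreated control cells and 55705 and 55803 after TNF-α, and 51432 and 51358 before and 42212 and 43320 after in depleted cells. CDH1, the epithelial cadherin, fell with TNF-α in control cells, at a log2 change of -2.51 (adjusted p = 1.06e-10). Of the 5 epithelial genes tested, 3 fell and 1 rose at an adjusted p under 0.05, where 2243 of all 14800 genes fell and 1648 rose. KRT19 was the one that rose, at 0.22 (adjusted p = 0.0191), and EPCAM stood at -0.19 (adjusted p = 0.0757). Of the 4 intestinal genes, CDX2 and VIL1 fell, at -1.07 and -2.10 (adjusted p = 1.10e-08 and 0.00469), and VIL1 held at most 12.3 normalized reads in a depleted library against up to 545 in a control library. Of 8 immune, stromal and endothelial genes, PTPRC, MS4A1 and COL3A1 were listed at 0 in all 8 libraries. The sum of the 8 was 90.7 and 75.8 in untreated control cells, 83.2 and 78.2 after TNF-α, 141 and 170 in untreated depleted cells and 130 and 131 after TNF-α. In this list CD68 rose by 1.08 with TNF-α in control cells, and CD14 fell, at -1.21 (adjusted p = 0.00314 and 0.0375). Among 17 alternative fits these calls were lost in 10 for CD14, 4 for VIL1 and 2 for CD68. The part of these marker differences in the family's values was not tested.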

How the data were processed

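Per the file headers and the study's methods, the authors aligned strand-specific mRNA-seq reads with STAR, counted reads on exons of RefSeq genes with HOMER and deposited a signal value per gene and library, the reads multiplied by 1 factor per library. The header names hg19 and the methods hg38; coordinates are given as in the table. The deposited columns of the authors' own comparisons (log2 fold changes, p-values and adjusted p-values from edgeR) were not used. Whole reads were recovered in 100% of values (tolerance 0.02 of a read). The main test was limma 3.58.1 (R 4.3.3) on log2(value + 1), with 4 group means, 5 contrasts, a mean of at least 2.5, an eBayes trend and Benjamini-Hochberg adjustment over 14800 genes; the script was tested on simulated data. Fold changes are on the log2(value + 1) scale, which understates low genes. Calls needed an adjusted p under 0.05 and a 2-fold change, or the adjusted p alone for the interaction. Alternatives were median-of-ratios scaling, other filters and pseudocounts, the replicate letter as a block, edgeR 4.0.16 and DESeq2 1.42.0 on recovered reads, each library left out and neighbouring genes' median removed. Named genes were the 10 family genes, up to 4 of each list with the largest change in control cells among those called, and the 5 most like NFKBIA; other genes were named after their values were seen. The family and lists were chosen with earlier results of these data known. Replicate libraries differed by more than counting noise, with a chi-square per gene from 2.07 to 3.93. Nothing but the methods says that replicates came from separate cultures; otherwise the p-values measure the spread between libraries, which may be technical. ChIP-seq and GRO-seq samples were not analysed here.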

Additional observations from a re-analysis of the deposited data

Results flagged for a closer look

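The response to TNF-α differed between mutp53-depleted and control cells for 7 family genes by the interaction test in limma. As differences in log2 change, depleted minus control, these were -2.01 for BCL3, -1.43 for NFKBIA, -0.93 for NFKB2, -0.89 for RELB, -0.89 for NFKBIE, -0.83 for REL and -0.46 for NFKB1. In both replicate letters each of the 7 was below 0: BCL3 stood at -2.13 in A and -1.88 in B, and NFKB1 at -0.39 and -0.52. The 7 were picked by the test on these same libraries, and the letters were not taken as pairs. The values by letter therefore describe the spread and are no separate support. The adjusted p of NFKB1 ranged from 0.0183 to 0.312 over its 17 alternatives and that of BCL3 from 2.91e-05 to 0.164.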

How the results depend on the processing

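No family gene changed direction in either TNF-α comparison or in the interaction under any alternative. The number with a smaller response in depleted cells was 7, and 5 to 8 in all alternatives but that with no filter on low values, where it was 1. There limma's prior degrees of freedom fell from 13.84 to 0.58, as 26457 genes entered, many with no read; with the 18934 genes that had a read, an alternative chosen after seeing the data, the number was 6. Leaving out a library gave 5 to 6. NFKB1, REL and NFKBIE lost the interaction call in 12, 7 and 5 of 17 alternatives.

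With neighbouring genes' median removed, the number of family genes called at least 2-fold fell from 3 to 1 at 0 h and from 1 to 0 at 16 h. At 16 h it was 2 in edgeR, and 1 to 2 with a library left out. That removal turned RELB at 0 h to 0.38 and NFKBIZ at 16 h from 0.53 to -0.21; without the A library of treated control cells NFKB1 at 16 h stood at 0.02, beside values down to -0.04 without other libraries. The interaction of CXCL8, -0.34, became 0.07 with a pseudocount of 5 and between -1.52 and 0.83 (0.04 and 0.05 among them) without single libraries. The cause was not tested.

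Not divided by length, the RELA share was 43.8% and 20.4% in control cells before and after TNF-α, and 43.4% and 30.4% in depleted cells. The NFKB2 share was 17.4% and 34.0% in control cells and 26.7% in treated depleted cells, and the ratio of classical IκB to subunits 0.265, 0.457, 0.473 and 0.561 in the 4 groups. Over all genes, edgeR on recovered reads called 472 higher with TNF-α in control cells, against 440 in limma. The interaction was called for 424 genes in limma, 456 in edgeR, 293 in DESeq2, 34 with no filter and 208 to 421 with a library left out. Deviations of the A libraries correlated by -0.042 to 0.117 between groups, so the letters were not taken as pairs. With the letter as a replicate block the number of family genes with a smaller response was 8. Over all genes the interaction was then called for 559, and for 501 with a pseudocount of 5 and no block. Depth limits NFKBIZ most, with 13 reads in a library.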

Other observations

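MAP3K14, which encodes NIK, did not pass the test with TNF-α in either cell state (log2 changes of -0.06 and 0.07, adjusted p = 0.696 and 0.623 in limma). It was higher in mutp53-depleted cells at both times, by 1.43 ± 0.09 (SE) at 0 h and 1.56 ± 0.09 at 16 h (adjusted p = 7.12e-10 and 2.24e-10), where its 50 neighbours had medians of 0.46 and 0.51. BIRC3, a gene for a ligase in NIK turnover, was higher in untreated depleted cells by 3.86 ± 0.20, with 188 and 176 normalized reads, and also in treated ones by 1.02 ± 0.20 (adjusted p = 2.91e-11 and 2.72e-04), with 2591 and 2541 against 1371 and 1169 in treated control cells. MAP3K14, BIRC3 and NFKBID were picked for this paragraph after their values were seen. NFKBID, a nuclear IκB gene outside the 10, read 116 and 120 in untreated control cells and 134 and 108 after TNF-α, with a log2 change of 0.03 and a 95% interval from -0.35 to 0.41. It was lower in depleted than in control cells at 16 h, at -0.61 (adjusted p = 0.00857), and stood at -0.21 at 0 h (adjusted p = 0.346).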
